A study of Solanum lycopersicum with 18 samples.

Results

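The wild-type H3K27me3 landscape of the tomato shoot apex was described from the peaks of 2 ChIP-seq replicates. A region was taken as reproducible where a peak of replicate 1 and a peak of replicate 2 had at least 1 bp in common, and the shared interval was kept. This gave 15590 regions from the 34724 peaks of both lists, out of 53161 peaks in the 4 peak lists of the series. The series has 18 libraries from wild-type and crel mutant plants, of which these 2 entered the description. Each replicate was made from apices of wild-type tomato (Solanum lycopersicum) at 28 days, harvested with about 3 visible expanding leaves and without any treatment, so the mark is an average over meristem, leaf primordia and young leaf tissue. The lists give the place of each peak and no height, score or p-value. Fewer cells that carry the mark and less mark per cell therefore cannot be told apart, and the depth behind a peak is unknown. With 2 replicates of 1 group no test was run, and the values of each replicate alone give the spread.

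H3K27me3 is the trimethylation of lysine 27 on histone H3. In plants it is deposited by Polycomb Repressive Complex 2 (PRC2) and typically lies over the bodies of genes that are kept silent in a given tissue, many of them regulators of development. Tomato chromosomes have gene-rich arms, the euchromatin, and a long pericentromeric interior of repeat-rich heterochromatin. The mark of that interior is mainly the methylation of another histone residue, lysine 9 of histone H3, together with DNA methylation. The short arm of chromosome 2 is largely heterochromatic and carries the ribosomal RNA gene array.

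All positions are on the SL2.40 build, whose sequence names the peaks carry. The 12 chromosomes held 15216 of the reproducible regions, and the other 374 lay on sequence not placed on a chromosome. On the chromosomes the regions covered 50.8 Mb. The peaks of replicate 1 alone covered 58.3 Mb with 17718 peaks, and those of replicate 2 covered 55.8 Mb with 16098 peaks. Measured up to their last peak, the chromosomes added up to 759 Mb, of which 6.69% lay in reproducible regions. The corresponding coverage was 7.68% for replicate 1 and 7.35% for replicate 2. The unplaced regions covered 0.733 Mb, with a median width of 1516 bp and none wider than 10988 bp, and they are left out of the values that follow.

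The lists of both replicates shared most of their bases and had nearly the same coverage in 1-Mb bins. Of the peaks of replicate 1, 80.7% overlapped a peak of replicate 2 (95% Wilson interval 80.1 to 81.2), and of the peaks of replicate 2, 89.7% overlapped a peak of replicate 1 (interval 89.2 to 90.1). These intervals cover counting error alone and take the peaks as independent of each other, which clustered peaks are not. Along the chromosomes the covered share of 753 whole 1-Mb bins differed between the replicates by a median of 0.206 percentage points and by at most 2.54. Across these bins, which are not independent of each other, the Pearson correlation was 0.999 and the Spearman correlation 0.999. Replicate 1 was covered more than replicate 2 in 535 bins and less in 195. The Jaccard index, the bases in both lists divided by the bases in either, lay between 0.780 on chromosome 5 and 0.826 on chromosome 2.

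The share of peaks found in both replicates differed by width. A match needed only 1 bp in common, which a wide peak meets more easily. The matched share by width was not computed for a stricter overlap. All 4815 peaks of 4 kb or more in replicate 1 overlapped a peak of replicate 2, and all 4639 such peaks of replicate 2 overlapped one of replicate 1. In the class from 1000 to 1999 bp the matched share was 88.6% in replicate 1 and 96.6% in replicate 2. It was 34.1% and 54.2%, in the same order, for peaks of 501 bp, the smallest width in both lists. This width was also the most frequent one, with 3193 peaks in replicate 1 and 2344 in replicate 2. The unmatched peaks had a median width of 501 bp in both replicates, whereas the matched peaks had medians of 2572 bp in replicate 1 and 2412 bp in replicate 2. Together the unmatched peaks covered only 2.29 Mb in replicate 1 and 1.03 Mb in replicate 2.

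**Figure D1:**
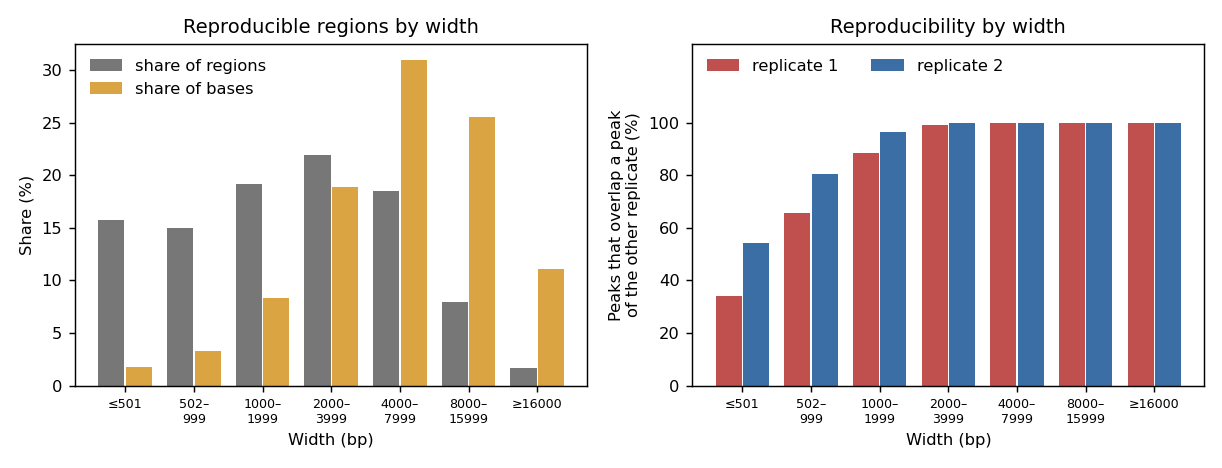
The left panel plots the share of reproducible regions and the share of their bases (%, vertical axis) in 7 classes of width (bp, horizontal axis), and the right panel plots the share of the peaks of each replicate that overlapped a peak of the other (%), in the same classes. Regions under 1 kb made up 30.7% of all regions and 5.11% of the bases. The matched share, at an overlap of at least 1 bp, is 34.1% and 54.2% for the narrowest peaks of replicates 1 and 2. It climbs to 100% from 4 kb on.

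Some unmatched peaks lay close to a peak of the other replicate, but most were farther than 1 kb from any. The distances to be found by position alone were not computed. In replicate 1, 28.4% of its 3428 unmatched peaks were within 1 kb of a replicate 2 peak and 26.5% were farther than 10 kb from any. In replicate 2, 38.7% of 1666 were within 1 kb and 20.2% farther than 10 kb. The widest peak of replicate 1 without a partner lay on chromosome 11 from 9620522 to 9623208, with 2687 bp, and the nearest replicate 2 peak was 1583 bp away. For replicate 2 it lay on chromosome 8 from 515620 to 518405, with 2786 bp, at 1418 bp from the nearest replicate 1 peak. No peak wider than these was found in a single replicate. The share of unmatched peaks in the central part of the chromosomes and in their outer parts was 18.0% and 19.9% in replicate 1, and 10.3% and 10.4% in replicate 2.

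The borders of the regions were also close. A simple pair of peaks, with 1 peak from each list that met no other, stood behind 11997 regions, or 78.8%. In these pairs the starts differed by a median of 196 bp and the ends by a median of 186 bp, and 82.7% of the starts and 82.8% of the ends lay within 500 bp of each other. The widths were within 2-fold in 93.4% of the pairs, with a Spearman correlation of 0.941 across pairs. Replicate 1 had the wider peak in 53.0% of them and replicate 2 in 43.4%. In the remaining regions at least 1 of the peaks met more than 1 peak of the other list. There were 865 peaks of replicate 1 that met 2 or more peaks of replicate 2, and 743 the other way round. No peak met more than 4 peaks of the other list.

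Reproducible regions had a median width of 2003 bp, with 10% at or under 482 bp and 10% at or over 7865 bp. The peaks of replicate 1 had a median of 1862 bp and those of replicate 2 of 2055 bp. Of the shared intervals, 1670 were narrower than the smallest peak, and 146 of these spanned less than 100 bp, where the edges of 2 peaks barely touched. Most of the marked sequence lay in wide regions. The 4285 regions of 4 kb or more were 28.2% of the regions and held 67.6% of the bases, and the widest 10% of regions held 37.5% of the bases. This last share was 38.3% in replicate 1 and 37.3% in replicate 2. There were 922 regions of at least 10 kb, against 1072 and 1035 peaks of that width in replicates 1 and 2.

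The median width depended strongly on how a region was outlined. It was 3022 bp when overlapping peaks of both replicates were merged into a common outline in place of the shared interval. The width of a region told little about its neighbours. Across 15204 pairs of adjacent regions the Spearman correlation of their widths was 0.08, and that of the gap between them with their mean width was -0.0034. Neighbouring peaks within the single lists gave 0.08 for both replicates.

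The widest reproducible region spanned 63657 bp on chromosome 1, from 1839807 to 1903463, at 2.07% of the chromosome. Replicate 1 had a peak of 65702 bp there and replicate 2 one of 63657 bp. The second spanned 61357 bp on chromosome 2, from 43360427 to 43421783, at 86.9% of the chromosome, with a peak of 61812 bp in replicate 1 and of 72918 bp in replicate 2. The third was again on chromosome 2, with 54854 bp between 36873932 and 36928785, just inside the central part at 73.9% of the length. There the peaks were 54854 bp and 55617 bp wide in replicates 1 and 2. By construction every reproducible region lies within a single peak of each list. The replicate 2 peak of the second domain began earlier, at 43348866, and the preceding reproducible region ended 546 bp before the domain. That preceding region thus lay in the same replicate 2 peak, which replicate 1 had in pieces. The next widest reproducible region, also the widest of chromosome 7, spanned 46558 bp from 60376820 to 60423377, at 92.6% of the chromosome.

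The widest region of each of the other chromosomes was shorter, between 24717 bp on chromosome 11 and 38914 bp on chromosome 4. On chromosome 4 it ran from 2503108 to 2542021 and was preceded by 374930 bp without a reproducible region. On chromosome 6 it ran from 43689217 to 43726525. The one of chromosome 10 occupied 3527087 to 3563052. On chromosome 9 it lay from 61762095 to 61796426. The one of chromosome 3 occupied 53376560 to 53407397. On chromosome 5 the domain began at 4382337 and ended at 4413461. That of chromosome 8 began at 49135158 and ended at 49163958, and that of chromosome 12 spanned 62004273 to 62034618. The shortest of them, on chromosome 11, lay from 49983084 to 50007800. The widest regions of all 12 chromosomes lay in the outer parts. Which genes lie in these domains was not analysed here, because no annotation of this build was used.

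The chromosomes differed in coverage by more than the replicates did. Chromosome 2 had 10.6% of its length in reproducible regions and chromosome 6 had 10.5%. At the other end were chromosome 5 with 4.78% and chromosome 12 with 5.06%. Replicate 1 covered 12.1% of chromosome 2 and 5.56% of chromosome 5, and replicate 2 covered 11.4% and 5.34%. The largest difference between the replicates on any chromosome was 0.659 percentage points, on chromosome 2, so the order of chromosomes 2 and 6 was not separable and was indeed reversed in replicate 2. The number of regions per Mb ran from 16.0 on chromosome 5 to 28.0 on chromosome 6, and chromosomes 6, 2, 3 and 4 headed this measure in that order in each replicate alone.

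The densely marked chromosomes also had slightly more wide regions. The share of regions of at least 8 kb was highest on chromosome 6 with 13.1% and on chromosome 2 with 12.4%, and lowest on chromosome 5 with 7.43%. The replicates differed in this share by at most 1.36 percentage points. The median width varied little, from 1804 bp on chromosome 11 to 2205 bp on chromosome 8. On single chromosomes the replicates differed in median width by up to 313 bp, so most chromosomes were not separable by it.

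**Figure D2:**
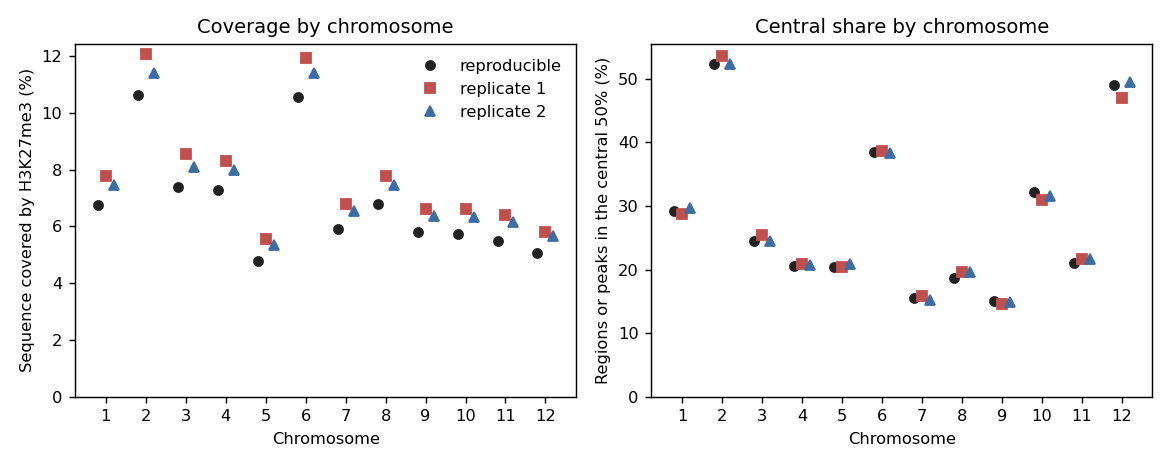
Each point is a chromosome (horizontal axis) in the reproducible set, in replicate 1 or in replicate 2, with the share of sequence covered by H3K27me3 on the left (%) and the share of regions or peaks in the central 50% of the chromosome on the right (%). Chromosomes 2 and 6 stand above the others in coverage, and chromosomes 2 and 12 have central shares of 52.4% and 49.0% in the reproducible set.

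H3K27me3 peaks were concentrated towards the ends of the chromosomes. How much of the sequence in each part could be mapped was not tested. Density is given per length of sequence, and density relative to the number of genes was not computed. The central 50% of the sequence held 4301 regions and the outer parts, 25% at each end, 10915, which is 11.3 regions per Mb against 28.7. The central share of regions was 28.3% in the reproducible set, 28.3% in replicate 1 and 28.5% in replicate 2. In terms of bases, 3.81% of the central sequence and 9.58% of the outer sequence was covered. Regions per Mb in bins of 5% of the chromosome reached 44.2 between 90% and 95% of the length and had their minimum of 4.64 between 50% and 55%, which is a 9.54-fold range. This range was 9.65-fold in replicate 1 and 9.25-fold in replicate 2. The first and the last 10% of the chromosomes together held 38.3% of the regions, with 39.0% of the peaks in replicate 1 and 38.2% in replicate 2.

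**Figure D3:**
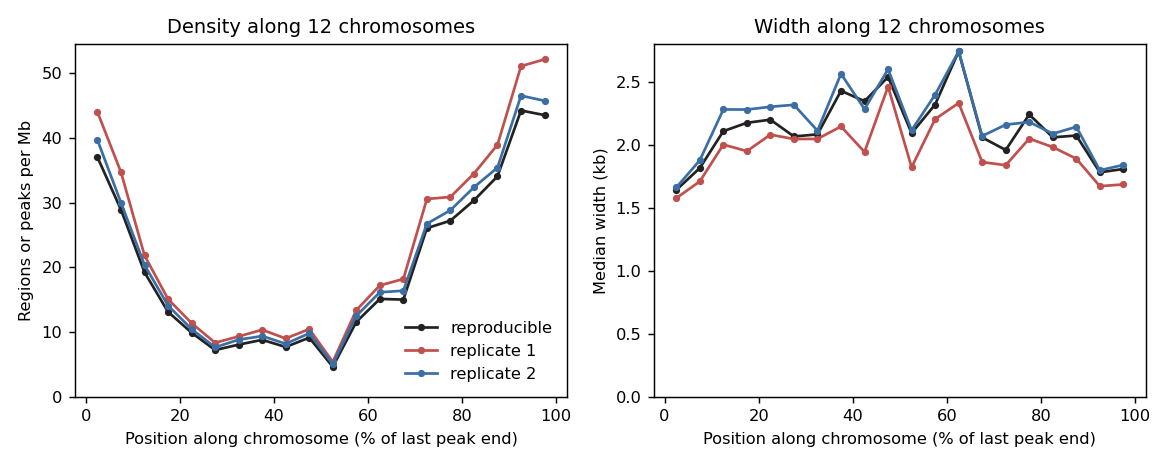
Regions or peaks per Mb (left) and their median width in kb (right) are plotted against the position along the chromosome, in 20 bins of 5% of the distance to the last peak and over 12 chromosomes, for the reproducible set and each replicate. The density curve has high ends and a low interior, with replicate 1 above replicate 2 in all 20 bins, whereas the median width is lower at the ends than in the interior.

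Regions of the interior were rarer but not narrower. Their median width was 2231 bp, against 1915 bp in the outer parts. The same medians were 2035 bp and 1788 bp in replicate 1, and 2289 bp and 1955 bp in replicate 2. The central median was the higher one on 11 of 12 chromosomes, in the reproducible set and in each replicate. The exception was chromosome 9, where the central regions had a median of 1529 bp and the outer regions one of 2206 bp. The very widest regions were not more common in the interior. Of the regions from 4000 to 7999 bp, 32.6% lay in the central part, and of those of 16000 bp or more, 23.4% did.

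The ends were not marked alike. The last 25% of the length held more regions than the first 25% on 9 of 12 chromosomes, again in the reproducible set and in each replicate. The contrast was greatest on chromosome 2, where the last 25% held 599 regions and the first 25% held 48. In replicate 1 these numbers were 671 and 64, and in replicate 2 they were 629 and 54. Chromosome 5 was the other way round, with 357 regions in the last 25% and 467 in the first. Chromosome 11 had 348 in the last and 440 in the first, and chromosome 12 had 233 in the last and 311 in the first.

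The pattern of high ends and a low interior was not followed by every chromosome. The central share lay between 15.0% on chromosome 9 and 52.4% on chromosome 2. The replicates differed in this share by at most 2.50 percentage points, on chromosome 12. Without chromosomes 2 and 12, a choice made after the values were seen, the central share over the remaining chromosomes was 24.0%.

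On chromosome 2 the density changed abruptly along the sequence. It was 3.21 and 4.41 regions per Mb in the bins from 45% to 50% and from 50% to 55%, and 54.1 and 62.9 in the bins from 55% to 60% and from 60% to 65%. In the bin from 60% to 65% replicate 1 had 69.7 peaks per Mb and replicate 2 had 62.9. Chromosome 6 had a marked band inside its interior. There were 37.9 regions per Mb between 45% and 50%, with 43.1 peaks in replicate 1 and 41.8 in replicate 2, and only 2.61 regions per Mb in the next bin.

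Chromosome 12 had a trough close to its end. Its densest bin, from 70% to 75%, had 45.3 regions per Mb. The next bins, up to 95%, had between 2.75 and 11.0, and the last bin again had 43.4. In these 4 low bins the peaks per Mb were between 3.67 and 11.9 in replicate 1 and between 3.67 and 10.7 in replicate 2. Chromosome 3 had a similar, shorter trough near its start. It had 46.9 regions per Mb in the first 5%, 3.39 from 5% to 10%, and 35.8 from 10% to 15%.

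**Figure D4:**
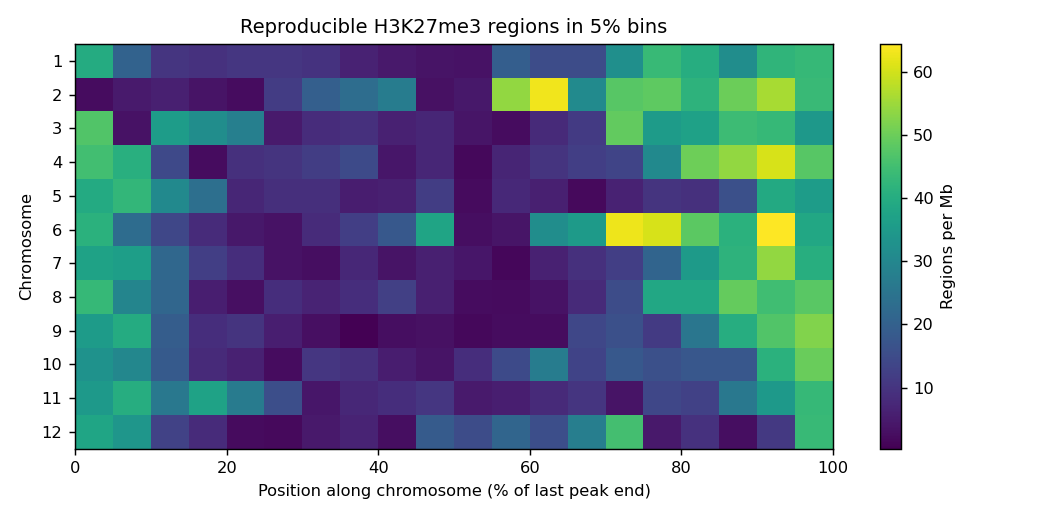
Colour gives the number of reproducible regions per Mb in 20 bins of 5% along each chromosome (horizontal axis, % of the last peak end; vertical axis, chromosome). Most chromosomes are bright at both ends, while chromosome 2 is dark over its first 25%, chromosome 6 has a bright band near its middle and chromosome 12 has a dark stretch between 75% and 95%.

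At the scale of 1 Mb the mark was uneven. Of the 753 whole bins, 177 or 23.5% had under 1% of their bases in reproducible regions, and 133 of these were central. There were 32 bins with none at all, of which 21 had no peak in either list. The 75 bins with the highest coverage held 33.0% of the covered bases, and 14 of them were central.

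The best covered bin was on chromosome 2 from 30000001 to 31000000, with 36.9% of its bases in 82 regions. Replicate 1 covered 40.6% of it and replicate 2 covered 40.0%. The next was on the same chromosome from 36000001 to 37000000, with 34.0% in 59 regions. They were followed by a bin of chromosome 6 from 20000001 to 21000000 with 28.5%, one of chromosome 7 from 4000001 to 5000000 with 28.5%, and one of chromosome 6 from 42000001 to 43000000 with 28.4%. The replicates covered the bin at 20000001 of chromosome 6 by 31.3% and 29.9%. The first 3 of these 5 bins belong to the central part of their chromosomes, and the first of chromosome 6 lies across the start of the marked band described above. The last 3 differed by less than the replicates did within each of them.

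Regions were spaced very unevenly. The gap from the end of a region to the start of the next had a median of 9.70 kb and a mean of 46.5 kb. Its coefficient of variation was 2.96, and it was 2.97 in replicate 1 and 2.96 in replicate 2. For points strewn evenly at random this coefficient would be near 1. That value assumes the same density everywhere, which the chromosomes did not have, and a reference with varying density was not computed. Of all gaps, 13.1% were at most 1 kb, 38.2% at most 5 kb and 50.6% at most 10 kb, while 1 in 10 exceeded 101 kb. The median gap was 8.20 kb in replicate 1 and 9.34 kb in replicate 2. It was 16.4 kb when only overlaps of 50% of each peak were kept, which leaves fewer regions. No gap within a list was under 499 bp.

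The unevenness was found within each part of the chromosomes, although density also varied within each part. The median gap was 16.0 kb in the central part, against 8.07 kb in the outer parts, and the coefficient of variation was 2.53 in the central part and 2.72 in the outer parts. In replicate 1 the median gaps were 13.5 kb and 6.86 kb, and in replicate 2 they were 15.4 kb and 7.81 kb. Gaps of at most 5 kb made up 30.4% of the central and 41.3% of the outer gaps. By chromosome the median gap ran from 7.31 kb on chromosome 4 to 12.5 kb on chromosome 5, and the replicates differed by up to 2.06 kb. The coefficient of variation was lowest on chromosome 5, with 2.30, and highest on chromosome 9, with 3.87, as it was in each replicate.

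**Figure D5:**
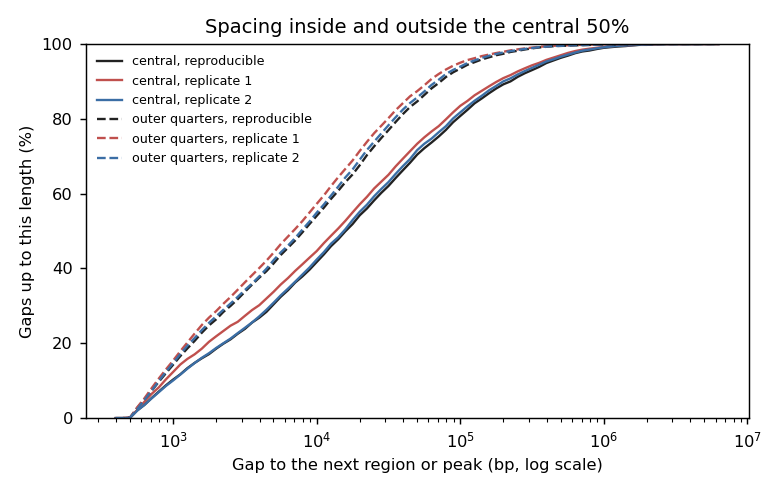
The cumulative share of gaps (%, vertical axis) is plotted against the length of the gap to the next region or peak (bp, log scale) for the central 50% (solid lines) and the outer parts (dashed lines), in the reproducible set and in each replicate. The solid curves lie below the dashed ones over the whole middle range, with medians of 16.0 kb and 8.07 kb in the reproducible set.

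When neighbours with a gap of at most 5 kb were linked, 10.5% of the regions stood in runs of 5 or more and 39.8% stood alone. The share in such runs was 13.2% in replicate 1 and 11.2% in replicate 2. It was 7.00% among central regions and 11.8% among outer regions. Regions in runs of 5 or more were about as wide as single ones, with medians of 2113 bp and 2128 bp. The median over all regions was 2003 bp, so regions in shorter runs had a lower median than both. The share in runs was highest on chromosome 2, with 15.4%, and lowest on chromosome 5, with 4.15%, in each replicate as well. It depended on the definition, with 1.66% at a link of 2 kb, 24.9% at 10 kb, 7.05% for merged outlines, 4.77% when regions up to 1 kb apart were joined and 3.05% for overlaps of 50% of each peak. In part this follows from the construction, because a domain that is called in pieces counts as a run.

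The run with the most regions lay on chromosome 8 from 57911882 to 57997233. It had 18 regions over 85.4 kb and 69.5% of its bases marked. Replicate 1 had 14 peaks there that covered 79.2%, and replicate 2 had 16 that covered 72.5%. The second lay on chromosome 2 from 30968396 to 31050994, with 14 regions and 72.7% of 82.6 kb marked, and it starts within the best covered 1-Mb bin. Replicates 1 and 2 both had 11 peaks in it. Regions can outnumber the peaks of either list, because a shared interval ends wherever either list has a break. The ranking of runs by number of regions therefore depends in part on how the peaks were split. A run of 12 regions occupied 56225261 to 56313653 on chromosome 8, and another of 12 occupied 381813 to 425895 on chromosome 3. The first of these had 70.7% of its bases marked and a widest region of 20986 bp, while the second had 53.8% marked and none over 4452 bp.

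Long stretches without any reproducible region occurred on every chromosome. The longest lay on chromosome 9 from 21216492 to 26047613, at 31.4% to 38.5% of its length, and spanned 4.83 Mb. Replicate 2 had no peak inside it. Replicate 1 had 2, which left it a longest empty stretch of 2499 kb. On the other chromosomes the longest empty stretch spanned between 1.24 Mb on chromosome 5 and 2.46 Mb on chromosome 3. In 10 of 12 cases its midpoint was in the central part. The stretch of chromosome 3 began at 16899942 and ended at 19360389, and that of chromosome 8 occupied 18476299 to 20814286. Those of chromosomes 1 and 11 occupied 43350538 to 45456923 and 38164255 to 40374490, with 2.11 Mb and 2.21 Mb. Chromosome 10 was empty between 15251048 and 17295701 and chromosome 6 between 12293792 and 14312281. The shorter ones of chromosomes 7 and 5 occupied 28738331 to 30140686 and 44266329 to 45505942. On chromosome 2 it lay from 5033112 to 6379252, at 10.1% to 12.8% of the length. On chromosome 12 it lay from 50792876 to 52714246, at 77.7% to 80.6%, within the trough near the end.

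The replicates mostly drew the same empty stretches. On 5 of the 12 chromosomes neither list had a peak inside. On chromosome 4 the stretch ran from 28171762 to 30291795, and the longest empty stretch was 2120 kb in replicate 1 and 2119 kb in replicate 2. The longest stretch of the reproducible set overlapped the longest one of replicate 1 on 10 of 12 chromosomes and that of replicate 2 on 9. On chromosome 12 it overlapped neither, because each list had a peak within it. There the longest empty stretch of replicate 1 was 1540 kb, and that of replicate 2 was 1540 kb too, both nearer the end of the chromosome.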

How the data were processed

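ChIP-seq was done with an antibody against H3K27me3 on 2 wild-type replicates. The authors mapped single-end reads with Bowtie2, removed reads of low mapping quality and PCR duplicates with SAMtools, and called peaks per replicate with HOMER, at settings not given in the sources used here. The deposited lists hold a start and an end per peak in bp, without score or signal. The methods name SL3.0, whereas the sequence names are those of SL2.40, and no coordinate was converted. The numbers of peaks and of reproducible regions in these lists are not those that the study gives. For regions the unit may differ too, since the study kept peaks found in both replicates and shared intervals are counted here. Why the numbers of peaks differ is not known. Positions are counted from 1.

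Lists were intersected (at least 1 bp) and gave the same intervals as bedtools 2.31.1. Python 3.11.15 was used with numpy 2.4.6, pandas 2.3.3, scipy 1.17.1 and, for figures, matplotlib 3.10.9. All 8 checks on 2075 simulated peaks gave equal counts, some against planted numbers and others against recounts of the same peaks. Relative position is the midpoint of a region divided by the end of the last peak in either list, and the central 50% runs from 25% to 75%. Groups came from the sample labels. No groups were compared, so no test was run. Input, crel and RNA-seq libraries were not analysed here, except that crel peaks were counted, and the RNA-seq table holds only the authors' own comparison. Named were the widest region and longest empty stretch per chromosome, the 3 largest runs with ties, the 5 best covered bins and the widest unmatched peaks. Members and rules were chosen with earlier results of these data known. Alternatives covered the definition, overlap, width and joining of regions, unplaced sequence, chromosome ends, linking distance and each replicate left out.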

Additional observations from a re-analysis of the deposited data

How the results depend on the processing

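The number of regions stayed within 1.5 times of 15216 under all 7 alternatives. It ran from 11608 with an overlap of 50% of each peak to 17718 in replicate 1 alone. The other results were held to a stricter limit, the standard deviation between the replicates. Of 45 alternatives over all results, 26 moved a value past its limit, none of them for the number of regions. With each replicate left out in turn there were 16098 to 17718 regions that covered 55.8 to 58.3 Mb, with a median width of 1862 to 2055 bp and a median gap of 8201 to 9336 bp. The central share was 28.3% to 28.5% and the share in runs 11.2% to 13.2%. Merged outlines covered 60.0 Mb, with a median width of 3022 bp, a median gap of 12440 bp, a central share of 29.1% and 7.05% in runs. An overlap of 50% of each peak left 46.7 Mb, a median width of 2716 bp, a median gap of 16389 bp, a central share of 29.7% and 3.05% in runs. Shared intervals of at least 500 bp had a median width of 2373 bp, a median gap of 11535 bp and 8.17% in runs. Joining regions up to 1000 bp apart gave a median width of 2415 bp, a median gap of 13694 bp, a central share of 29.2% and 4.77% in runs. Links of 2 kb and 10 kb gave 1.66% and 24.9% in runs. Without chromosomes 2 and 12, chosen after seeing the data, the central share was 24.0%. Including unplaced sequence moved no value by more than the replicates differed. Widths, gaps and runs thus depend on where a domain is split, whereas under every alternative tried here the central share stayed under 30%. No paired analysis was possible because only 1 group was described and no test was run. An absent peak shows no more than that enrichment among the reads kept did not pass a threshold that the sources used here do not give. Reads of low mapping quality had been removed, and how much of each empty stretch could be mapped was not tested.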
